A study of Drosophila melanogaster with 4 samples.

Results

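The fibroblast growth factor (FGF) system of Drosophila was examined in testis tumors: the ligands branchless (bnl), pyramus (pyr) and thisbe (ths) and the receptors breathless (btl) and heartless (htl). These 5 genes were taken by symbol from the 17558 features of the count table, and all 5 were present. In flies, Bnl binds Btl and guides the branching of the air-conducting tracheal tubes, whereas Pyr and Ths, which resemble vertebrate FGF8, bind Htl and act on migrating mesoderm and muscle. Both receptors are tyrosine kinases that signal through the adaptor Stumps (also called Dof) to Ras and MAP kinase, and sprouty (sty) encodes an inhibitor that the pathway switches on against itself. In the testis, Htl is known for its part in the migration of the muscle cells that come to cover the gonad.

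The tumors were produced by excess Unpaired (Upd), the JAK-STAT ligand that maintains germline stem cells (GSC) and somatic cyst stem cells (CySC). Nanos-Upd flies expressed UAS-Upd under GAL4::VP16-nanos.UTR, a germline driver, and carried y[1], w[1118] and the heat shock recombinase insertion P{hs70FLP}. TrafficJam-Upd flies expressed UAS-Upd under traffic Jam-GAL4, a cyst cell driver, and carried w[1118]. Both genotypes had the transgene UAS-FRT-H3-GFP-FRT-H3-mKO, and the ages of the flies are not given in the sources used here. Since the other alleles differ together with the driver, the place of Upd expression and the fly line cannot be told apart. There was no group without excess Upd. Testes of several males were pooled, and nothing states that the 2 replicates of a tumor type came from separate crosses, so p-values measure the spread between these libraries only, which may be technical.

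Droplet libraries (10x Genomics, 3' ends) held 4615 and 9093 cells for Nanos-Upd replicates 1 and 2, and 3241 and 3669 cells for TrafficJam-Upd replicates 1 and 2, with 13190124 to 33499923 unique molecular identifiers (UMIs) each. Cells had 2200 to 7499 UMIs. The authors sorted the cells into 5 classes, named GSC-like (10889 cells), CySC-like (8261), spermatocyte (624), somatic (515) and muscle (329). UMIs were summed per class and library and are given as counts per 1e6 UMIs of that sum (CPM). Of the marker lists, 10 early germline genes together reached 1459 to 1883 CPM in GSC-like cells, 9 cyst lineage genes 2018 to 2759 CPM in CySC-like cells and 11 muscle genes 19946 to 36004 CPM in the muscle class. The class named spermatocyte had 7087 to 15212 CPM of 11 spermatid markers and 266 to 407 CPM of 11 spermatocyte markers. Sums of different genes do not give a stage, and the stage of these cells was not tested. The somatic class carried 1569 to 2042 CPM of cyst lineage markers, but also 161 to 291 CPM of terminal epithelium and 121 to 513 CPM of hemocyte markers. Of the 3 fat body markers, Lsp2 and Fbp1 were at 0 there, and apolpp alone reached 998 CPM in 1 library. The muscle class carried 628 to 1372 CPM of cyst lineage and 431 to 709 CPM of terminal epithelium markers as well. The 5 classes of 4 libraries gave 20 sums, and the smallest of them (60 cells in somatic, 78 in muscle and 94 in spermatocyte) give the coarsest values.

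The genes lie on the autosomes, and only pyr and ths are close neighbours. On build dm6 (gene models of Ensembl release 115), bnl (FBgn0014135) spans chromosome 3R from 19794073 to 19836817 on the minus strand and htl (FBgn0010389) spans 3R from 18045216 to 18052984 on the minus strand. The gene btl (FBgn0285896) spans 3L from 14075772 to 14083229 on the plus strand. The FGF8-like ligands are neighbours on the plus strand of 2R: pyr (FBgn0033649) from 11712263 to 11726345 and ths (FBgn0033652) from 11756817 to 11814424, with 30471 bases and 0 annotated genes between them. The span of ths also holds CG13193 and CG42493 on its own strand, so reads could be shared there and the level of ths is uncertain to that extent. All 5 genes code for proteins.

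The ligands and the receptor gene htl had their highest levels in different classes. Transcripts of pyr were high in CySC-like and somatic cells, those of ths in somatic cells, and those of bnl in CySC-like cells. Transcripts of htl were high in muscle and present in GSC-like cells, and btl had few counts everywhere. The somatic class, high in pyr and ths, also held htl, at 0 to 38.3 CPM over the libraries. Over all cells the table held 7214 UMIs of pyr, 2735 of bnl, 1969 of htl, 1588 of ths and 73 of btl. At least 1 UMI was found in 23.3% of cells for pyr, 10.0% for bnl, 7.90% for htl, 5.35% for ths and 0.344% for btl. Levels are compared between classes for the same gene and not between genes.

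**Figure D1:**
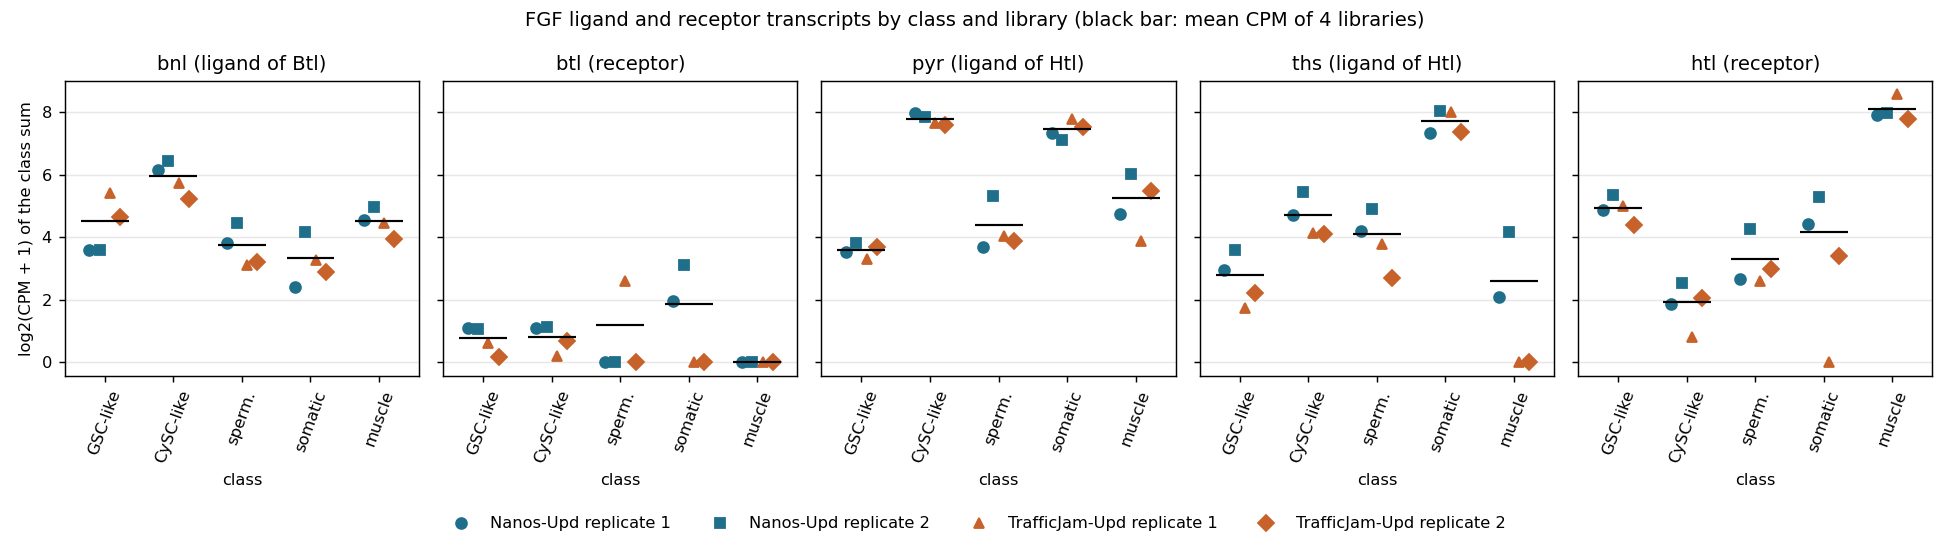
Level of each gene (log2 of CPM + 1 of the summed UMIs, vertical axis) in the 5 classes (horizontal axis), with 1 point per library and a black bar at the mean CPM of 4 libraries. CySC-like points of pyr sit at 192 to 251 CPM and muscle points of htl at 219 to 376 CPM, above every GSC-like point of the same gene, whereas no btl point is above 7.67 CPM.

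The ligand pyr had the strongest contrast between the stem-cell-like classes. In GSC-like cells it stood at 10.6 and 13.0 CPM in the Nanos-Upd libraries, against 8.93 and 11.8 CPM in the TrafficJam-Upd libraries. In CySC-like cells it stood at 251 and 226 CPM in the Nanos-Upd libraries, against 201 and 192 CPM in the TrafficJam-Upd libraries. Every CySC-like sum was above every GSC-like sum. The tumor types overlapped in GSC-like cells, whereas in CySC-like cells both Nanos-Upd sums were the higher ones. Of the genes tested in CySC-like cells, 60.5% did not overlap either. The log2 fold change of GSC-like over CySC-like cells was -4.60 ± 0.14 (SE; edgeR quasi-likelihood test over 8 sums with the library as block, Benjamini-Hochberg adjusted p = 4.96e-09). This contrast called 72.6% of the 8909 genes tested (35.1% higher and 37.4% lower in GSC-like cells), so a call alone does not set a gene apart there.

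Somatic cells carried pyr at 160 and 138 CPM in the Nanos-Upd libraries, against 219 and 180 CPM in the TrafficJam-Upd libraries. By class means the order was CySC-like (217 ± 26.6 CPM, SD, n = 4 libraries), somatic (174 ± 34.3), muscle (36.8 ± 22.0), spermatocyte (20.0 ± 12.8) and GSC-like (11.1 ± 1.73). The top neighbours did not differ beyond their spread: CySC-like over somatic was 0.33 ± 0.21 on the log2 scale (adjusted p = 0.302, edgeR over 20 sums), in a contrast that called 20.3% of 8153 genes. Somatic cells were above muscle by 2.13 ± 0.29 (adjusted p = 6.05e-06, 17.1% of genes called). GSC-like over spermatocyte was -0.95 ± 0.32 (adjusted p = 0.0119, 69.9% called), a call that ended without Nanos-Upd replicate 2 (-0.70, adjusted p = 0.0630). Spermatocyte over muscle was -1.07 ± 0.38 (adjusted p = 0.0178, 58.3% called), and that call was lost in 6 of 10 alternatives. As a share of the CySC-like level, pyr stood at 4.74% to 17.4% in spermatocytes and at 6.87% to 28.5% in muscle. The cyst lineage markers of the same class were higher in every library (6.58% to 18.5% in spermatocytes and 23.3% to 51.4% in muscle). Whether pyr UMIs in these 2 classes reflect expression there was not tested.

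After every cell was thinned to 2200 UMIs, 1.61% to 2.73% of GSC-like and 32.7% to 40.7% of CySC-like cells had a pyr UMI. Without thinning the shares were 3.75% to 4.51% and 44.2% to 54.2%, although GSC-like cells were the deeper ones (median 3531 to 5014 UMIs per cell over libraries, against 2868 to 3323 in CySC-like cells). The GSC-like level of pyr was 4.23% to 6.17% of the CySC-like level, below the 7.86% to 11.0% of the 9 cyst lineage markers. Whether pyr UMIs in GSC-like cells reflect expression there was not tested. Within CySC-like cells, pyr was set against markers of cyst cell state: eya marks differentiating cyst cells and zfh1 marks the stem cells. Cells with an eya UMI and no zfh1 UMI had 419 and 219 CPM in Nanos-Upd libraries, against 271 and 237 CPM in TrafficJam-Upd libraries. Cells with zfh1 and no eya had 244 and 225 CPM in Nanos-Upd libraries, against 201 and 191 CPM in TrafficJam-Upd libraries. The eya cells were higher in 3 of 4 libraries, with a log2 fold change of 0.38 ± 0.12 that missed the threshold (adjusted p = 0.0562, edgeR; 3.27% of 6673 genes called). It passed without Nanos-Upd replicate 2 (0.52, adjusted p = 0.0216).

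The other FGF8-like ligand, ths, had its highest level in the somatic class. It stood there at 159 and 261 CPM in the Nanos-Upd libraries, against 253 and 161 CPM in the TrafficJam-Upd libraries. In CySC-like cells it stood at 25.0 and 42.4 CPM and at 16.6 and 16.0 CPM in the libraries of the same order, and no CySC-like sum reached a somatic one. CySC-like over somatic was -3.12 ± 0.26 on the log2 scale (adjusted p = 2.84e-09, edgeR over 20 sums; 20.3% of genes called), whereas pyr gave 0.33 in the same contrast. Since the somatic class is small, it held 19.4% to 31.4% of the ths UMIs of a library, and CySC-like cells held 42.7% to 59.0%. The CySC-like level of ths was 6.57% to 16.3% of the somatic level. Terminal epithelium, hemocyte and hub markers were present in the same somatic sums, hub markers at 721 to 1433 CPM. Hub markers also stood at 560 to 1243 CPM in CySC-like cells. In muscle the terminal epithelium markers summed to 431 to 709 CPM, but Sox100B, 1 of the 3, was at 0 there. The part of such cells in the somatic ths level was not tested.

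GSC-like cells had the lowest ths levels of the stem-cell-like classes, at 6.72 and 11.0 CPM in Nanos-Upd libraries, against 2.32 and 3.64 CPM in TrafficJam-Upd libraries. GSC-like over CySC-like was -2.40 ± 0.15 (adjusted p = 1.49e-07, edgeR), and the GSC-like sum was the lower one in all 4 libraries. GSC-like cells held 14.0% to 26.9% of the CySC-like ths level, above the 7.86% to 11.0% of cyst lineage markers. The class means ran from somatic (208 ± 56.0 CPM) over CySC-like (25.0 ± 12.3), spermatocyte (16.1 ± 9.72) and GSC-like (5.92 ± 3.85) to muscle (5.04 ± 8.07). CySC-like and spermatocyte cells did not differ beyond their spread (0.58 ± 0.35, adjusted p = 0.150; 69.4% called), and neither did GSC-like and muscle cells (-0.09 ± 0.73, adjusted p = 0.935; 46.6% called). GSC-like over spermatocyte was -1.69 ± 0.40 (adjusted p = 0.000690). In muscle, ths had 1 and 5 UMIs in the Nanos-Upd libraries, against 0 in both TrafficJam-Upd libraries, where a count of 0 allows up to 10.4 and 10.8 CPM.

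The tumor types did not overlap for ths in the stem-cell-like classes, as for most genes tested there, and neither main test passed the threshold. Nanos-Upd values were also the higher ones in spermatocytes (17.3 and 28.7 CPM, against 12.8 and 5.51 CPM in TrafficJam-Upd libraries) and in muscle. In those 2 classes ths did not pass the filter on low counts, and 28.2% and 39.7% of the genes tested did not overlap. In GSC-like cells both Nanos-Upd values were above both TrafficJam-Upd values, and the log2 fold change was 1.39 ± 0.46 (adjusted p = 0.0892, edgeR). In CySC-like cells both Nanos-Upd values were also the higher ones, with 0.89 ± 0.23 (adjusted p = 0.0687). These contrasts called 3.12% of 9466 and 2.84% of 8701 genes, and 59.7% and 60.5% of the genes tested had groups that did not overlap. Without Nanos-Upd replicate 1, which had the lower Nanos-Upd value in both classes, ths passed in GSC-like (1.68, adjusted p = 0.00618) and in CySC-like cells (1.18, adjusted p = 0.00242). In somatic cells the fold change was 0.00 ± 0.31 (adjusted p = 0.998; 0.184% of 4897 genes called).

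The ligand bnl was the member whose class difference depended on the tumor type. In GSC-like cells it stood at 10.9 and 11.0 CPM (127 and 236 UMIs) in the Nanos-Upd libraries, against 41.2 and 23.9 CPM (231 and 184 UMIs) in the TrafficJam-Upd libraries. In CySC-like cells it stood at 70.5 and 85.8 CPM (432 and 925 UMIs) in Nanos-Upd libraries, against 51.7 and 36.0 CPM (345 and 182 UMIs) in TrafficJam-Upd libraries. The order of the tumor types was thus opposite in the classes. Nanos-Upd libraries were the low ones in GSC-like cells and the high ones in CySC-like cells, without overlap in either. Most genes tested lacked overlap too, with 59.7% of them for the GSC-like class and 60.5% for the CySC-like class. A lack of overlap within a class thus does not set bnl apart.

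**Figure D2:**
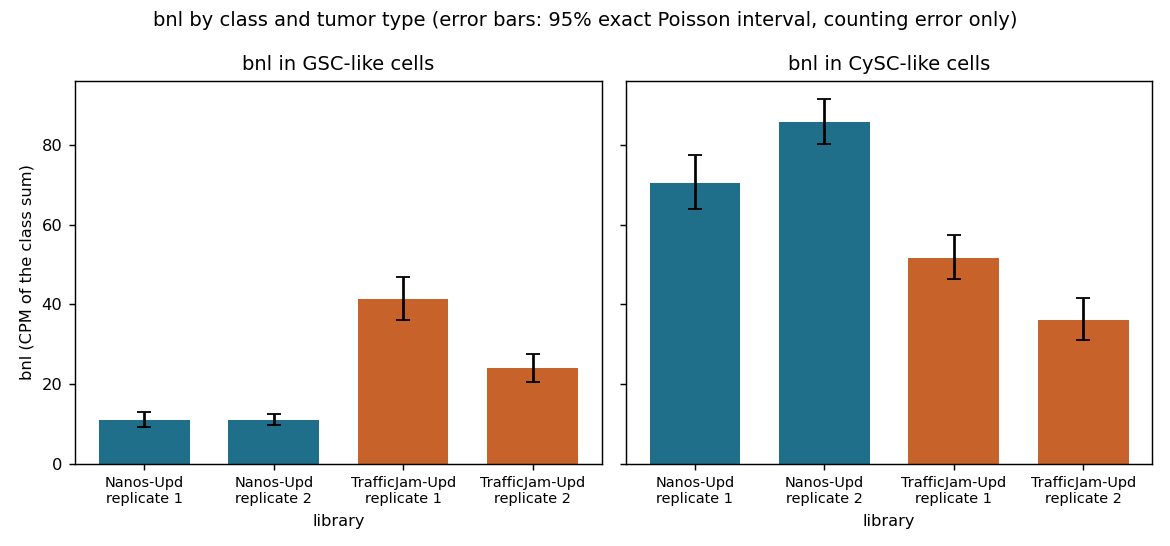
bnl level (CPM of the class sum, vertical axis) by library (horizontal axis) for the GSC-like class beside the CySC-like class, with 95% exact Poisson intervals for counting error. GSC-like bars are near 11 CPM in Nanos-Upd libraries, against 41.2 and 23.9 CPM in TrafficJam-Upd libraries, while CySC-like bars are higher in Nanos-Upd (70.5 and 85.8) than in TrafficJam-Upd libraries (51.7 and 36.0).

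The CySC-like level was 6.45 and 7.77 times the GSC-like level in the Nanos-Upd libraries, but 1.25 and 1.50 times in the TrafficJam-Upd libraries. The interaction of class and tumor type, (GSC-like minus CySC-like in Nanos-Upd) minus (GSC-like minus CySC-like in TrafficJam-Upd), was -2.46 ± 0.20 on the log2 scale (adjusted p = 1.01e-09, edgeR over 8 sums with libraries nested in tumor type). That interaction called 132 of 9787 genes (1.35%), and bnl had the smallest p of all 9787. It was called in 10 of 10 alternatives, with values of -2.61 to -2.19 and a largest adjusted p of 0.0211. The interaction was -0.18 ± 0.25 for pyr (adjusted p = 0.913), 0.42 ± 0.32 for ths (adjusted p = 0.787) and -0.69 ± 0.63 for htl (adjusted p = 0.861). That of htl rests on single libraries: it was -2.19 (adjusted p = 0.0133) without TrafficJam-Upd replicate 2 and 0.39 (adjusted p = 0.923) without TrafficJam-Upd replicate 1.

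Within GSC-like cells, bnl was lower in Nanos-Upd than in TrafficJam-Upd libraries, with a log2 fold change of -1.70 ± 0.24 (adjusted p = 0.00171, edgeR over 4 sums). It held rank 17 by p among 9466 genes, of which 1.07% were called lower, and it was called in 11 of 11 alternatives (-1.98 to -1.38). Within CySC-like cells the fold change was 0.68 ± 0.17 and missed the threshold (adjusted p = 0.0685); it passed without Nanos-Upd replicate 1 (0.76, adjusted p = 0.0366), without TrafficJam-Upd replicate 1 (0.90, adjusted p = 0.0378) and with DESeq2 (0.69, adjusted p = 0.0394). Taken over both tumor types, GSC-like over CySC-like was -1.98 ± 0.69 (adjusted p = 0.0710) and missed the threshold, although the GSC-like sum was the lower one in 4 of 4 libraries. Under DESeq2 the same contrast passed (-1.95, adjusted p = 0.00335), as it did without TrafficJam-Upd replicate 2 (-2.36, adjusted p = 0.0307).

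Several measurements stand beside this pattern. The GSC-like level of bnl was 15.5% and 12.9% of the CySC-like level in Nanos-Upd libraries, against 79.8% and 66.5% in TrafficJam-Upd libraries. The cyst lineage markers in GSC-like cells were at 8.44% and 11.0% of their CySC-like level in Nanos-Upd libraries, against 7.86% and 10.3% in TrafficJam-Upd libraries, without a separation of the tumor types. Without the cells that held UMIs of 2 or more early germline markers together with 2 or more cyst lineage markers (17.3% of the GSC-like cells, 14.2% of the CySC-like cells), the interaction of bnl was -2.61 (adjusted p = 8.51e-14). After thinning, 2.24% and 2.35% of GSC-like cells had a bnl UMI in Nanos-Upd libraries, against 8.04% and 5.07% in TrafficJam-Upd libraries. In CySC-like cells the thinned shares were 11.3% and 15.7% in Nanos-Upd libraries, against 8.54% and 6.96% in TrafficJam-Upd libraries. The shares thus followed the order of the CPM values in both classes.

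Expression of the drivers' cargo marked the intended class. Upd (upd1) stood at 64.3 and 58.6 CPM in GSC-like cells of Nanos-Upd and at 1.79 and 5.33 CPM in GSC-like cells of TrafficJam-Upd libraries. In CySC-like cells it stood at 4.24 and 10.9 CPM in Nanos-Upd libraries, against 77.4 and 65.8 CPM in TrafficJam-Upd libraries. In each class, bnl was lower in the tumor type with the high upd1 level in that class. Since the drivers set which tumor type that is, this restates the order of the tumor types for bnl. The upd1 levels were added after the members' values were seen, and a link to bnl was not tested. Cells in which the H3-GFP transgene was detected, a comparison chosen after its values were seen and not tested, had values on both sides of those of the other cells of the class. GSC-like cells of Nanos-Upd libraries had 11.3 and 9.10 CPM of bnl with an H3-GFP UMI, against 10.8 and 11.7 CPM without one. CySC-like cells of TrafficJam-Upd libraries had 60.0 and 31.3 CPM with an H3-GFP UMI, against 48.4 and 37.3 CPM without one.

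In the smaller classes bnl was low and the counts were few. It stood at 13.0, 20.9, 7.68 and 8.27 CPM in spermatocytes, at 4.33, 16.9, 8.58 and 6.33 CPM in somatic cells and at 22.7, 30.5, 20.7 and 14.4 CPM in muscle (Nanos-Upd replicates 1 and 2, then TrafficJam-Upd replicates 1 and 2), from 2 to 12 UMIs each. CySC-like cells had the highest mean (61.0 ± 21.7 CPM), followed by muscle (22.1 ± 6.64), GSC-like (21.8 ± 14.3), spermatocyte (12.4 ± 6.10) and somatic cells (9.03 ± 5.51). Every CySC-like sum was above every muscle sum, but CySC-like over muscle, at 1.34 ± 0.53, missed the threshold (adjusted p = 0.0690; 25.1% called) and passed it in 1 of 10 alternatives, the fit with no filter on low counts (adjusted p = 8.24e-05). The other neighbours in that order did not differ beyond their spread: GSC-like over muscle was -0.39 ± 0.58 (adjusted p = 0.613), GSC-like over spermatocyte 0.47 ± 0.54 (adjusted p = 0.449) and spermatocyte over somatic 0.45 ± 0.77 (adjusted p = 0.632; 64.2% called). CySC-like cells were above the lowest classes, by 2.20 ± 0.50 over spermatocytes (adjusted p = 0.000501) and by 2.66 ± 0.56 over somatic cells (adjusted p = 0.00134). The muscle level of bnl was 32.1% to 40.1% of the CySC-like level, and cyst lineage markers in muscle were at 23.3% to 51.4% of theirs.

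The receptor of Pyr and Ths, htl, was highest in the muscle class. It stood there at 240 and 247 CPM in the Nanos-Upd libraries, against 376 and 219 CPM in the TrafficJam-Upd libraries (61 to 109 UMIs). GSC-like cells had 27.9 and 39.7 CPM in Nanos-Upd libraries, against 31.1 and 20.0 CPM in TrafficJam-Upd libraries. Every muscle sum was above every GSC-like sum, and the log2 fold change of GSC-like cells over muscle was -3.57 ± 0.31 (adjusted p = 2.57e-09, edgeR over 20 sums; 46.6% of genes called).

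GSC-like cells were nevertheless well above CySC-like cells, the class with the lowest htl mean. CySC-like sums had 2.61 and 4.82 CPM in Nanos-Upd libraries, against 0.749 and 3.16 CPM in TrafficJam-Upd libraries (5 to 52 UMIs). GSC-like over CySC-like was 3.08 ± 0.30 (adjusted p = 8.94e-05, edgeR; 35.1% of genes called higher), and the GSC-like sum was the higher one in 4 of 4 libraries. The GSC-like level was 8.25% to 16.1% of the muscle level, whereas the 11 muscle markers stood in GSC-like cells at 0.403% to 0.644% of their muscle level. The reverse ratio, CySC-like over GSC-like, was 2.41% to 15.8% for htl and 7.43% to 15.9% for the 10 early germline markers. Whether htl UMIs in CySC-like cells reflect expression there was not tested. After thinning, 4.90% to 8.44% of GSC-like cells and 0.265% to 0.982% of CySC-like cells had an htl UMI, and 33.3% to 53.0% of muscle cells. Without thinning the shares were 7.86% to 13.5% in GSC-like cells, 0.265% to 1.52% in CySC-like cells and 43.6% to 62.7% in muscle.

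**Figure D3:**
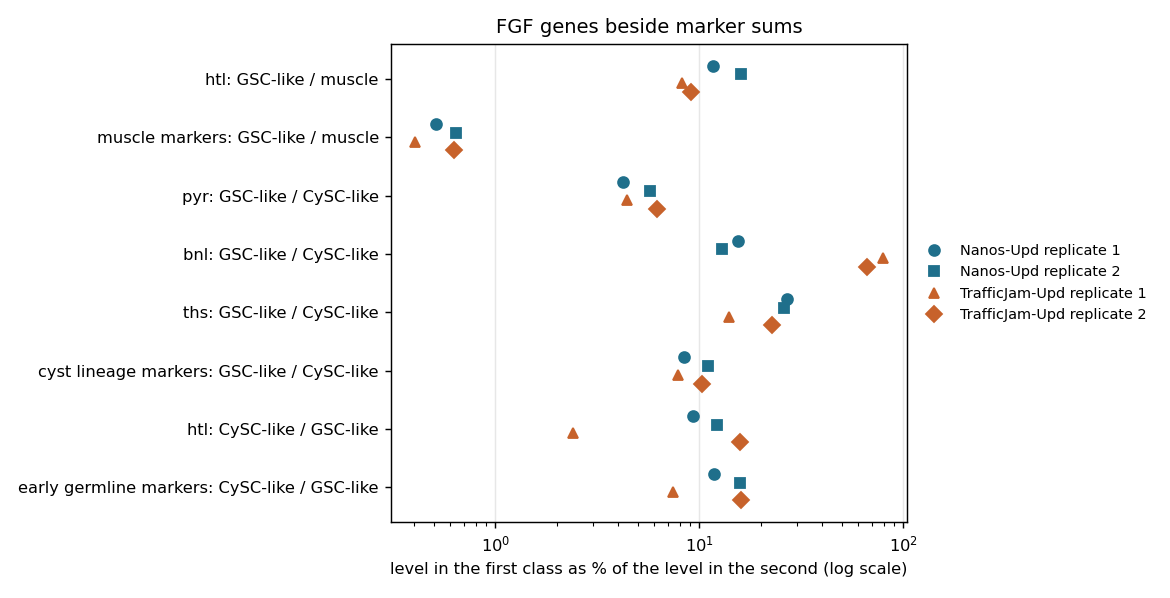
Level of a gene or of a summed marker list in 1 class as a percentage of its level in another (horizontal log axis), with 1 point per library, for the class pairs named on the vertical axis. For GSC-like relative to muscle cells, htl lies at 8.25% to 16.1% and the muscle markers at 0.403% to 0.644%; for GSC-like relative to CySC-like cells, bnl of the TrafficJam-Upd libraries lies at 79.8% and 66.5%, apart from the cyst lineage markers at 7.86% to 11.0%.

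Because GSC-like cells span stem cells and their early descendants, htl was also compared by bam, which marks differentiating germ cells. Cells with a bam UMI had 33.0 and 43.2 CPM of htl in Nanos-Upd libraries, against 36.7 and 20.3 CPM in TrafficJam-Upd libraries. Cells without one had 26.1 and 37.9 CPM and 28.1 and 19.9 CPM in the libraries of the same order. The bam cells were the higher ones in 4 of 4 libraries, by 0.24 ± 0.09 on the log2 scale, but the test missed the threshold (adjusted p = 0.0962, edgeR; 7.57% of 8215 genes called). Cells with a bam UMI were also the deeper ones, with medians of 3862 to 5371 UMIs against 3397 to 4842. The ligands gave -0.23 (bnl, adjusted p = 0.305), -0.34 (pyr, adjusted p = 0.183) and -0.39 (ths, adjusted p = 0.235) in the same split.

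By class means the order for htl was muscle (271 ± 71.5 CPM), GSC-like (29.7 ± 8.16), somatic (17.0 ± 16.4), spermatocyte (8.92 ± 6.28) and CySC-like (2.84 ± 1.68). Somatic cells ranged widely, with 20.2 and 38.3 CPM in Nanos-Upd libraries, against 0 and 9.50 CPM in TrafficJam-Upd libraries. The 0 allows up to 12.9 CPM in that library, which had 60 somatic cells. GSC-like and somatic cells did not differ beyond their spread (0.34 ± 0.42, adjusted p = 0.512; 55.5% called). Spermatocyte over somatic was -1.23 ± 0.61 and missed the threshold (adjusted p = 0.0822); it passed in 2 of 10 alternatives, without TrafficJam-Upd replicate 1 (-1.39, adjusted p = 0.00642) and with no filter on low counts (-1.22, adjusted p = 0.0137). CySC-like over spermatocyte was -1.62 ± 0.62 (adjusted p = 0.0263), a call lost without Nanos-Upd replicate 1 (adjusted p = 0.0891) and without TrafficJam-Upd replicate 2 (adjusted p = 0.0962). The tumor types did not overlap for htl in the somatic class, with both Nanos-Upd sums the higher ones, but overlapped in the GSC-like, CySC-like and muscle classes. Of the 4897 genes tested in somatic cells, 44.6% did not overlap either. In somatic cells htl did not pass the filter on low counts, and without that filter its fold change of 2.38 ± 0.83 missed the threshold (adjusted p = 0.200, edgeR). Nanos-Upd over TrafficJam-Upd was 0.27 ± 0.23 in GSC-like (adjusted p = 0.484), 0.81 ± 0.73 in CySC-like (adjusted p = 0.493) and -0.43 ± 0.37 in muscle cells (adjusted p = 0.810). In muscle edgeR called 0 of 3361 genes (0%) between tumor types, with 259 at an unadjusted p under 0.05 and 7 called by DESeq2.

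The tumor type left pyr without a call in every class tested. Nanos-Upd over TrafficJam-Upd was 0.02 ± 0.30 in GSC-like (adjusted p = 0.977), 0.13 ± 0.13 in CySC-like (adjusted p = 0.535), -0.41 ± 0.28 in somatic (adjusted p = 0.552) and 0.50 ± 0.66 in muscle cells (adjusted p = 0.891). In the spermatocyte class no member passed the filter on low counts, and 0.669% of 6276 genes were called. Of the members that could be tested, bnl in GSC-like cells was the only call between tumor types.

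The receptor of Bnl, btl, gave too few counts for a class pattern. It had 13, 23, 3 and 1 UMIs in GSC-like cells and 7, 13, 1 and 3 UMIs in CySC-like cells (Nanos-Upd replicates 1 and 2, then TrafficJam-Upd replicates 1 and 2). These amount to 0.130 to 1.12 CPM and 0.150 to 1.21 CPM. In the somatic class it had 2, 5, 0 and 0 UMIs, and the level of 7.67 CPM in Nanos-Upd replicate 2 was the highest of all 20 sums, with a counting interval of 2.49 to 17.9 CPM. Spermatocytes had 2 UMIs in 1 library, and muscle had 0 in all 4, which allows up to 9.71 to 10.8 CPM per library. The gene did not pass the filter in the class comparisons. Between tumor types it passed in GSC-like cells only, where Nanos-Upd over TrafficJam-Upd was 1.65 ± 0.85 (adjusted p = 0.235).

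Markers of tracheal cells, in which btl is known to act, were low as well, with the highest class mean in spermatocytes (12.5 CPM). The 6 tracheal markers found in the table summed to 1.43 to 4.57 CPM in GSC-like cells, 0.988 to 4.24 in CySC-like cells, 9.65 to 17.3 in spermatocytes, 2.88 to 12.9 in somatic cells and 0 to 9.71 in muscle. Of these markers, Gasp, verm and vvl were at 0 in the somatic class, and trh was also at 0 in muscle.

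**Figure D4:**
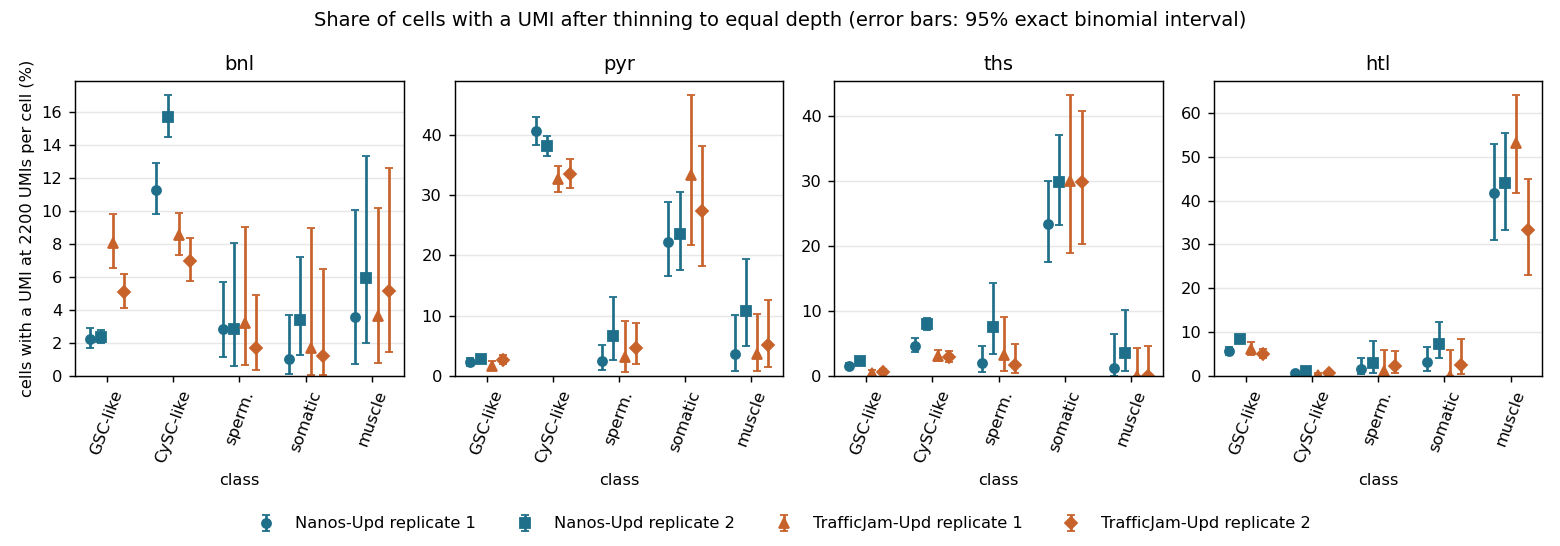
Share of cells with at least 1 UMI of a gene (percent, vertical axis) in each class (horizontal axis) and library after every cell was thinned to 2200 UMIs, with 95% exact binomial intervals. In CySC-like cells pyr is found in 32.7% to 40.7%, in somatic cells ths in 23.3% to 30.0%, and in muscle htl in 33.3% to 53.0% of cells, while btl is left out for its low counts.

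Downstream of the receptors, the adaptor gene stumps, which is specific to FGF receptors, followed the muscle and somatic classes. Its levels were 64.6 to 117 CPM in muscle, 17.2 to 99.7 CPM in somatic cells, 0.979 to 5.75 CPM in CySC-like cells, 0.390 to 3.09 CPM in GSC-like cells and 0 to 2.61 CPM in spermatocytes. GSC-like cells were thus among the classes with the lowest stumps level while holding the second highest mean of htl. GSC-like over CySC-like was -1.44 ± 0.34 for stumps (adjusted p = 0.00263, edgeR), from 81 and 93 UMIs in all.

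Among the transduction genes (stumps, Ras, Raf, MAP kinase and their partners), 4 rose and 9 fell in GSC-like relative to CySC-like cells, stumps being among the 9, out of 18 tested, and the median log2 fold change was -0.24. Over all 8909 genes 35.1% rose and 37.4% fell, and the median was -0.06. The list of feedback genes (sty, Cbl, aos, kek1, Mkp3, ttk and edl), not all of which encode inhibitors of the receptors, gave 0 higher and 6 lower of 7 tested, with a median of -1.61. The inhibitor gene sty had 13.2 to 51.0 CPM in GSC-like cells and 260 to 729 CPM in CySC-like cells, and its fold change of -4.75 ± 0.34 (adjusted p = 0.000243) was the largest of the pathway lists. It also stood at 355 to 738 CPM in muscle. The ETS regulator gene edl had 12.1 to 20.0 CPM in GSC-like cells, against 114 to 229 CPM in CySC-like cells (-3.75 ± 0.20, adjusted p = 8.43e-06). Such genes also answer to the EGF receptor, and which receptor their levels follow was not tested.

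Genes of heparan sulfate, the sugar chain that FGFs need for receptor binding, gave 4 higher and 9 lower of 15 tested, with a median of -0.51. Of all 8909 genes tested, 35.1% were higher and 37.4% lower, with a median of -0.06. The largest fall was that of trol, the core protein perlecan, at -3.18 ± 0.10 (adjusted p = 3.03e-09), with 52.2 to 152 CPM in GSC-like cells and 425 to 904 CPM in CySC-like cells. The sulfotransferase genes Hs3st-A and Hs2st rose, by 1.92 ± 0.33 (adjusted p = 0.000308) and 1.14 ± 0.16 (adjusted p = 6.19e-05). For Hs3st-A the levels were low, at 3.57 to 5.60 CPM in GSC-like cells, against 0.395 to 1.31 CPM in CySC-like cells. Genes that process the ligands or act upstream of them gave 3 higher and 3 lower of 8 tested, near the shares of all genes, with a median of -0.01. The highest rise was that of esg, a transcription factor gene of stem cells and tracheal tip cells, at 2.55 ± 0.22 (adjusted p = 0.000128), with 115 to 197 CPM in GSC-like cells, against 11.8 to 36.4 CPM in CySC-like cells.

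**Figure D5:**
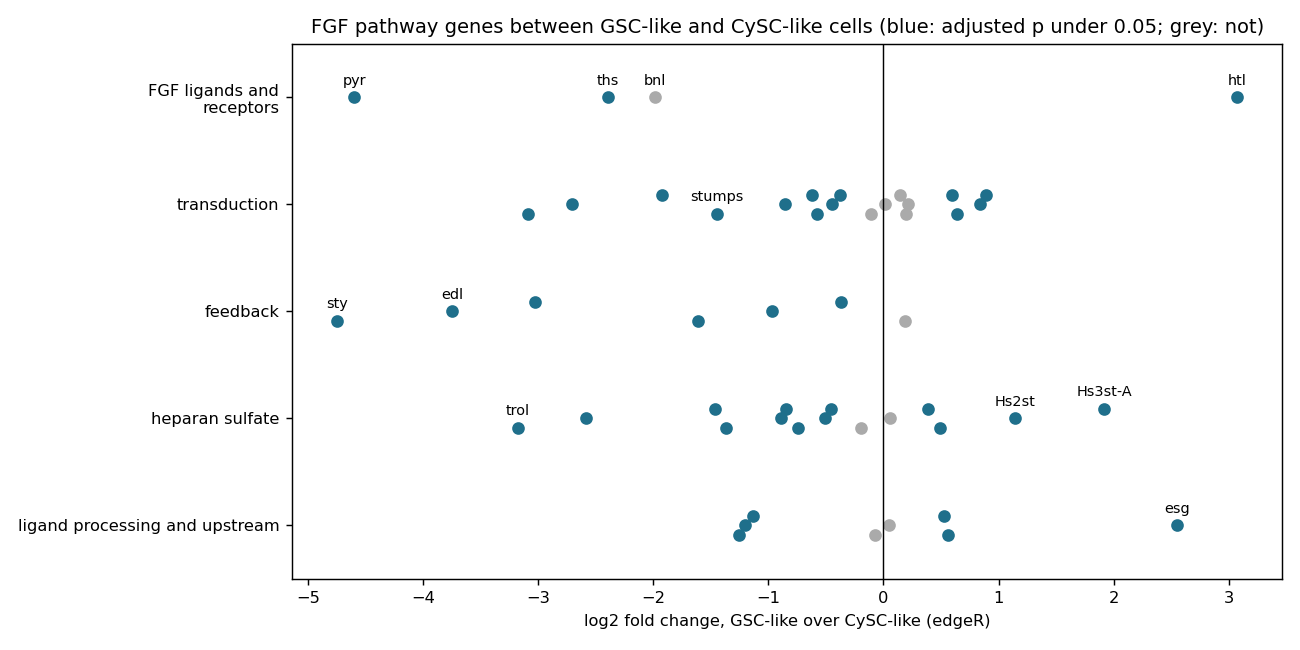
Log2 fold change of GSC-like over CySC-like cells (horizontal axis) for the genes of the pathway lists and the members that could be tested (vertical axis), blue where the adjusted p was under 0.05 and grey otherwise. sty (-4.75) and pyr (-4.60) lie farthest to the left and htl (3.08) and esg (2.55) farthest to the right.

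Between tumor types few genes of the lists passed the test. In GSC-like cells 0 of 17 transduction, 0 of 7 feedback, 0 of 15 heparan sulfate and 0 of 9 processing and upstream genes passed the test, beside 3.12% of all genes. In CySC-like cells 3 of 7 feedback genes rose in Nanos-Upd relative to TrafficJam-Upd libraries, beside 1.57% of all genes: sty by 0.94 ± 0.15 (adjusted p = 0.0183), aos by 0.67 ± 0.13 (adjusted p = 0.0370) and Mkp3 by 0.53 ± 0.11 (adjusted p = 0.0440). Hs6st (0.73 ± 0.13, adjusted p = 0.0274) and esg (1.14 ± 0.19, adjusted p = 0.0207) rose as well. The genes aos, Mkp3 and Hs6st were singled out after their values were seen. The class by tumor type interaction of sty was -0.12 ± 0.84 (adjusted p = 0.990), and that of esg was -0.88 ± 0.21 (adjusted p = 0.0267).

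Genes with the most similar pattern over the 20 sums of class and library were sought among 7721 genes with a mean of at least 10 CPM, by Pearson's r of log2(CPM + 1). For pyr the closest were CG9628, Samuel and miple2, each with r = 0.98. For ths they were Prx6c, CG8180 and sim, each with r = 0.90, and for htl they were hlk (0.95), nrm (0.94) and OtopLa (0.93). The closest to bnl were less alike, at 0.77 for heph, 0.75 for Pka-R1 and 0.75 for Top3beta. The 20 points share libraries and differ mainly by class, so r describes the class pattern and has no test. The gene hlk, like htl, had its highest mean in muscle (668 CPM) and stood at 71.2 CPM in GSC-like and 6.14 CPM in CySC-like cells.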

How the data were processed

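Single-cell libraries of dissociated testis tumors were made with 10x Genomics 3' chemistry, per the labels' protocols. Cell Ranger 7.0.0, Seurat 5.0.3 and the build dm6 are named in the submitters' processing notes. The authors deposited UMI counts per gene and cell, and a table with each cell's library, class and percent of mitochondrial and ribosomal UMIs. How classes were assigned, and whether doublets were removed, is not given in the sources used here; no doublet caller was run. Of 20583 distinct barcodes, 35 (0.17%) occurred in more than 1 library.

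UMIs were summed per class and library and tested with edgeR 4.0.16 (TMM scaling, the filter filterByExpr, and a quasi-likelihood fit with robust dispersion) under R 4.3.3. Genes were called where the p-value, adjusted by Benjamini-Hochberg over all genes tested, was under 0.05. Standard errors were derived from the F statistic. GSC-like and CySC-like sums were fitted with the library as block, class pairs over all 20 sums with the library as block, tumor types within a class without a block, and the interaction with libraries nested in tumor type. Intervals are 95% exact Poisson or binomial and, like the limit of 3 counts behind a 0, cover counting error only. Scripts were tested on simulated data. Python 3.11.15, numpy 2.4.6, pandas 2.3.3, scipy 1.17.1 and matplotlib 3.10.9 were used.

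The members, lists and tests were chosen with earlier results of these data known. Named are the members, stumps, sty, the 3 called pathway genes that moved most up and most down between GSC-like and CySC-like cells, and the 3 genes closest in pattern to each member with at least 100 UMIs. The symbols slal, dys, rye and walker were not matched, and Gap1 is an older name of the listed RasGAP1. Alternatives were DESeq2 1.42.0, RLE size factors, no filter, at least 3000 UMIs per cell, no mixed cells, each library left out, other blocks, and the 20-sum fit. The deviations of same-numbered libraries from their group means correlated over 7725 genes with r = -0.20 (GSC-like), -0.19 (CySC-like), 0.17 (spermatocyte), -0.020 (somatic) and 0.14 (muscle). With 2 pairs, and nothing in the labels that gives the numbers a meaning, they were not taken as pairs.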

Additional observations from a re-analysis of the deposited data

Results flagged for a closer look

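The interaction of class and tumor type for bnl stands out by a test of the difference itself: it was -2.46 ± 0.20 on the log2 scale (edgeR, adjusted p = 1.01e-09, 2 libraries per tumor type). The GSC-like minus CySC-like difference was -2.58 and -2.85 in the Nanos-Upd libraries and -0.32 and -0.57 in the TrafficJam-Upd libraries, on log2(CPM + 1). It was lower in both Nanos-Upd libraries than in both TrafficJam-Upd libraries. Groups of 2 libraries were too small to look for a library that stands apart.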

How the results depend on the processing

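Of 420 alternative values of member tests, 366 kept direction and side of the threshold, 21 newly passed, 9 no longer passed and 24 changed sign. For GSC-like over CySC-like, pyr, ths and htl were called in 12 of 12 alternatives. There bnl also passed with DESeq2 (-1.95), no library block (-1.77), the replicate block in place of the library (-1.79) and the 20-sum fit (-1.74), and ranged from -2.45 to -1.45 with each library left out. Genes called there numbered 4305 in the 20-sum fit, against 6464.

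Between tumor types ths ranged from 0.99 to 1.87 in GSC-like and from 0.48 to 1.18 in CySC-like cells with a library left out, and bnl in CySC-like cells from 0.48 to 0.90. Without the filter ths passed in GSC-like (1.39) and CySC-like cells (0.87) and bnl in CySC-like cells (0.65), where bnl also passed with DESeq2 (0.69). Values near 0 changed sign. For pyr in GSC-like cells they were -0.0167 with RLE, -0.0168 with DESeq2, -0.083 at 3000 UMIs and -0.26 to 0.33 with a library left out. For ths in somatic cells they were -0.0015 with RLE, -0.0027 with DESeq2, -0.10 without mixed cells, -7.9e-05 with crossed numbers and -0.30 to 0.30 with a library left out. For ths in GSC-like cells over muscle they were 0.10 without the filter, 0.13 without mixed cells and -0.32 to 1.59. The other ranges with a library left out were -0.0058 to 0.50 for htl in GSC-like and -0.79 to 0.027 in muscle cells, -0.15 to 1.49 for pyr in muscle, -0.45 to 0.15 (pyr) and -2.19 to 0.39 (htl) for the interaction, and for bnl -0.030 to 1.01 (GSC-like over spermatocyte), -0.84 to 0.067 (GSC-like over muscle) and -0.066 to 1.04 (spermatocyte over somatic).

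Counts of called genes moved more. Between tumor types they were 1154 in GSC-like, 1494 in CySC-like, 69 in spermatocyte, 138 in somatic and 36 in muscle cells without the filter, and 528, 527, 12, 58 and 7 with DESeq2, against 295, 247, 42, 9 and 0. With a library left out they ran from 312 to 1490, 111 to 1264, 4 to 103, 2 to 467 and 12 to 93. Without mixed cells they were 462 in GSC-like and 1 in somatic cells, and at 3000 UMIs 147 in GSC-like cells. For the interaction they were 54 with DESeq2, 68 at 3000 UMIs, 204 without mixed cells, 9 without the library block and 77 to 280 with a library left out, against 132. The causes were not tested.

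With the replicate block, calls between tumor types numbered 552, 163, 79, 1 and 70 in the order of classes above. Crossed numbers, added after seeing the data, gave 2484 in GSC-like, 718 in CySC-like, 10 in spermatocyte and 67 in somatic cells. With crossed numbers ths passed in GSC-like (1.36) and bnl in CySC-like cells (0.69).

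Depth limits btl (73 UMIs in all) and the 3 smaller classes, where sums of 60 to 249 cells leave levels under about 10 CPM unresolved. Levels are sums over cells, so they do not tell fewer expressing cells from less RNA per cell. Where most positive cells hold a single UMI, the shares of cells with a UMI follow the level and cannot tell these apart either. In GSC-like cells of Nanos-Upd replicate 1, for example, bnl had 127 UMIs in 105 cells.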
